A study of Homo sapiens with 6 samples.

Results

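The inositol phosphate kinases are the enzymes that add phosphate groups to inositol phosphates, and 10 of their genes (IPPK, IPMK, ITPK1, ITPKA, ITPKB, ITPKC, IP6K1, IP6K2, PPIP5K1 and PPIP5K2) were followed among the 32985 genes of the RNA-seq table. The set was chosen because IPPK was strongly lower after knockdown of NUF2, so the values of IPPK between the groups selected the set and are given as a description without a test. The other 9 genes were taken as its family, matched by gene symbol. The RNA came from 8505C, an established cell line of anaplastic thyroid cancer grown in RPMI-1640 with fetal bovine serum. Cells labelled WT in genotype received a control siRNA (siCtrl, n = 3 libraries), and cells labelled NUF2 knockdown received an siRNA against NUF2 (siNUF2, n = 3 libraries), both labelled 24 h. The methods list 1 siRNA sequence for NUF2 and jetPRIME as the transfection reagent, so a second siRNA against NUF2 was not compared here. NUF2 is a subunit of the NDC80 complex, which ties kinetochores to spindle microtubules, and the comparison asks which transcripts differ when it is depleted.

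Inositol phosphates begin with IP3, the soluble trisphosphate that phospholipase C releases from a membrane lipid and that opens calcium channels of the endoplasmic reticulum. ITPKA, ITPKB and ITPKC phosphorylate IP3 to a tetrakisphosphate, IPMK is a multikinase that carries the chain through IP4 to IP5, ITPK1 acts on tris- and tetrakisphosphates, and IPPK adds the last phosphate to make IP6 (phytic acid). IP6K1, IP6K2, PPIP5K1 and PPIP5K2 then attach a further phosphate to one already present, giving the diphosphoinositols IP7 and IP8, which take part in phosphate sensing. IP6 and these products bind proteins of RNA export, DNA repair and chromatin.

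The total count per library lay between 61257859 and 69755291. NUF2 was at 14.8, 14.5 and 12.2 FPKM (counts scaled by gene length and library size) in siCtrl and at 1.53, 2.05 and 1.56 FPKM in siNUF2. The targeted gene was lower in each library labelled siNUF2 than in any labelled siCtrl (log2 fold change -2.99, SE 0.17, adjusted p = 5.1e-04, edgeR's quasi-likelihood test). Of the thyroid lineage markers, NKX2-1 lay between 14.6 and 21.5 FPKM and HHEX between 5.16 and 6.58 FPKM, PAX8 reached at most 0.774 FPKM, and FOXE1, TG and SLC5A5 at most 0.0281 FPKM. The epithelial keratin KRT18 (136 to 205 FPKM) and the mesenchymal filament gene VIM (452 to 521 FPKM) were high, while EPCAM reached 0.243 FPKM and CDH1 0.0227 FPKM. Of the markers of other cells, the macrophage gene CD68 lay between 3.48 and 6.82 FPKM, and PTPRC, CD3E, PECAM1, VWF, PDGFRB and DCN each stayed at or under 0.518 FPKM. No tested marker had an adjusted p below 0.489 between the groups.

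IPPK (ENSG00000127080; GRCh38 chr9:92613183-92670131, minus strand), the IP6-forming kinase, was at 4.4, 4.90 and 5.11 FPKM in siCtrl 1, 2 and 3 and at 1.47, 1.11 and 1.63 FPKM in siNUF2 1, 2 and 3. The ranges of the groups did not overlap, and siNUF2 2 was the lowest library. The mean was 4.81 ± 0.365 FPKM (SD, n = 3) in siCtrl and 1.41 ± 0.264 FPKM (SD, n = 3) in siNUF2, which left 29.2% of the siCtrl mean. The log2 fold change, siNUF2 over siCtrl, was -1.75 (SE 0.18, 95% confidence interval -2.16 to -1.35), and it stayed between -1.87 and -1.62 when each library was left out in turn. The interval and this range rest on the values that chose the gene, so they describe its fall and do not test it. Behind these values were 1785 to 1997 counts per library in siCtrl and 452 to 591 in siNUF2. Of the 11725 genes tested (mean FPKM of at least 1), IPPK had the 15th most negative log2 fold change. In these bulk libraries, fewer cells that express a gene and less of its RNA per cell cannot be told apart.

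IPMK (ENSG00000151151; chr10:58191517-58267894, minus strand), the multikinase upstream of IPPK, fell as well. It was at 2.19, 4.13 and 3.26 FPKM in siCtrl 1, 2 and 3 and at 0.862, 1.21 and 1.42 FPKM in siNUF2 1, 2 and 3. The groups did not overlap, but the siCtrl libraries were spread widely, with siCtrl 1 the lowest of them and siNUF2 1 the lowest of all. The mean was 3.19 ± 0.971 FPKM (SD, n = 3) in siCtrl and 1.17 ± 0.282 FPKM (SD, n = 3) in siNUF2, or 36.5% of the siCtrl mean, from 407 to 2034 counts per library. The log2 fold change was -1.43 (SE 0.28, 95% confidence interval -2.07 to -0.79, adjusted p = 0.0311, edgeR), the 41st most negative of the genes tested. With the replicate number as a block it was -1.42 (SE 0.15, adjusted p = 0.00207, edgeR). The siNUF2 libraries held 39.4%, 29.4% and 43.5% of the siCtrl library with the same number. Leaving out any library other than siCtrl 1 raised the adjusted p above 0.05 (up to 0.110, edgeR), with the log2 fold change between -1.60 and -1.21 over those 5 fits.

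**Figure D1:**
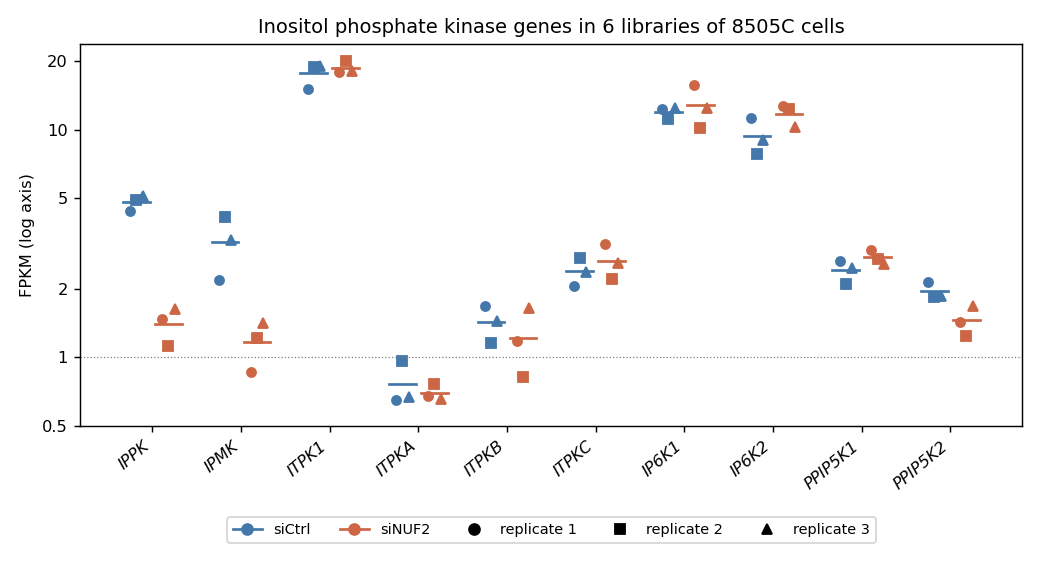
FPKM of the 10 inositol phosphate kinase genes in each of the 6 libraries, with siCtrl and siNUF2 as separate points and the group means marked. IPPK, IPMK and PPIP5K2 have no siNUF2 point as high as a siCtrl point, while the points of the other genes overlap.

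As a sequence feature that did not enter the choice of the genes, the 3′ UTRs of the family were searched for words that pair with bases 2 to 8 of the antisense strand given in the methods. The words, searched on the transcript strand, were ATGGAA (bases 2 to 7), TATGGAA (bases 2 to 8, which contains ATGGAA) and ATGGAAA (bases 2 to 7 followed by A, which contains ATGGAA). In the longest 3′ UTR of each gene in GENCODE release 44, ATGGAA was present in 6 of the 10 kinase genes and in 46.2% of the 10174 tested genes with such a UTR. TATGGAA was present in 3 of 10 (IPMK, ITPKB and PPIP5K2) and in 16.1% of those genes, and ATGGAAA in the same 3 and in 25.5%. A match is a description of the letters, and binding there was not tested. The windows below are 30 bases of GENCODE 44 transcripts on GRCh38, printed 5′ to 3′ with the matching word in capitals, and are shown for the gene the set was chosen on and for the 3 genes that hold the longer word.
IPPK, last exon (13 of 13), chr9:92615673-92615702, minus strand: cctcttggagacATGGAAttgaagagcact
IPPK, last exon, chr9:92615584-92615613, minus strand: cacactcttaaaATGGAAgtgtccgttaag
IPPK, last exon, chr9:92614652-92614681, minus strand: attagtgaaaccATGGAAttatatgaaaat
IPMK, last exon (6 of 6), chr10:58193629-58193658, minus strand: agtgtatttctTATGGAAtacactcattta
IPMK, last exon, chr10:58193422-58193451, minus strand: caagaaacagtTATGGAAatgtgtatatta
ITPKB, last exon (8 of 8), chr1:226634031-226634060, minus strand: cacccatctggTATGGAAacctgccggctc
ITPKB, last exon, chr1:226633419-226633448, minus strand: agtgagtctgaTATGGAAgggaatgtaaaa
PPIP5K2, last exon (31 of 31), chr5:103209604-103209633, plus strand: agtacttgataTATGGAAggatttttttaa
PPIP5K2, last exon, chr5:103210907-103210936, plus strand: tgaaatacagtTATGGAAatatttctgctg

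The number of copies depended on the length of the UTR, so each gene was set beside the 500 tested genes nearest to it in UTR length. IPPK held 3 copies of ATGGAA and none of TATGGAA in 2649 bases, and 11.0% of the genes of like length held at least as many copies of ATGGAA. IPMK held 2 copies of TATGGAA in 4559 bases, against 7.2% of genes of like length with as many. ITPKB held 2 copies of TATGGAA in 2981 bases (4.4% with as many) and PPIP5K2 held 2 in 11165 bases (16.2% with as many). For ATGGAA, the share of genes of like length with as many copies was 54.6% for IPMK, 13.4% for ITPKB and 28.4% for PPIP5K2. In the coding sequences of these transcripts, ATGGAA was present in 9 of the 10 kinase genes and in 45.9% of the tested genes. TATGGAA was present there in 2 of the 10 (ITPKB and PPIP5K1) and in 13.9%. These coding shares were not set beside genes of like length. The coding sequences of the kinase genes ran from 558 bases (IP6K2) to 4227 bases (PPIP5K1), against a median of 1260 bases over the tested genes. Whether these words bear on the levels was not tested.

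The 3 IP3 kinases were at low levels. ITPKB (ENSG00000143772; chr1:226631690-226739175), an IP3 kinase, was at 1.69, 1.16 and 1.44 FPKM in siCtrl and at 1.18, 0.816 and 1.65 FPKM in siNUF2, with a log2 fold change of -0.21 (SE 0.28, 95% confidence interval -0.84 to 0.42, adjusted p = 0.758, edgeR). ITPKC (ENSG00000086544; chr19:40717112-40740860) was at 2.05, 2.74 and 2.36 FPKM against 3.14, 2.21 and 2.59 FPKM, with a log2 fold change of 0.17 (SE 0.20, interval -0.30 to 0.63, adjusted p = 0.736, edgeR). In both genes the libraries of the groups overlapped. ITPKA (ENSG00000137825; chr15:41493393-41503551) was at 0.652, 0.968 and 0.667 FPKM in siCtrl and at 0.677, 0.761 and 0.657 FPKM in siNUF2, which overlap. It had a mean of 0.730 FPKM and 100 to 166 counts per library, so it did not pass the filter. In the fit without a filter its log2 fold change was -0.10 (SE 0.31, interval -0.81 to 0.61, adjusted p = 0.943, edgeR).

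ITPK1 (ENSG00000100605; chr14:92936914-93115925), which acts on the intermediate inositol phosphates, had the highest FPKM of the family. It was at 15.1, 18.9 and 19.1 FPKM in siCtrl and at 17.9, 20.04 and 18.01 FPKM in siNUF2, so the groups overlapped (log2 fold change 0.10, SE 0.12, interval -0.18 to 0.37, adjusted p = 0.743, edgeR).

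The kinases that form diphosphoinositols did not pass the threshold. PPIP5K2 and IP6K2 had an unadjusted p under 0.05 in edgeR, where 18.2% of all genes tested had one. PPIP5K2 (ENSG00000145725; chr5:103120149-103212799) was at 2.14, 1.84 and 1.86 FPKM in siCtrl 1, 2 and 3 and at 1.43, 1.24 and 1.69 FPKM in siNUF2 1, 2 and 3. The siNUF2 range lay wholly under the siCtrl range, with the closest pair at 1.69 and 1.84 FPKM. The siNUF2 mean was 74.7% of the siCtrl mean (log2 fold change -0.40, SE 0.14, interval -0.73 to -0.07, adjusted p = 0.193, edgeR). IP6K2 (ENSG00000068745; chr3:48688003-48740353) was at 11.2, 7.82 and 8.97 FPKM in siCtrl and at 12.7, 12.3 and 10.3 FPKM in siNUF2, with siCtrl 1 inside the siNUF2 range (log2 fold change 0.35, SE 0.15, interval 0.01 to 0.70, adjusted p = 0.265, edgeR). With the replicate number as a block the adjusted p was 0.0621 for PPIP5K2 and 0.0674 for IP6K2 (edgeR).

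IP6K1 (ENSG00000176095; chr3:49724294-49786542) was at 12.4, 11.1 and 12.4 FPKM in siCtrl and at 15.8, 10.2 and 12.5 FPKM in siNUF2 (log2 fold change 0.12, SE 0.15, interval -0.23 to 0.46, adjusted p = 0.759, edgeR). PPIP5K1 (ENSG00000168781; chr15:43533462-43590201) was at 2.65, 2.11 and 2.46 FPKM against 2.96, 2.71 and 2.56 FPKM (log2 fold change 0.21, SE 0.14, interval -0.10 to 0.52, adjusted p = 0.483, edgeR). Both genes overlapped between the groups.

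**Figure D2:**
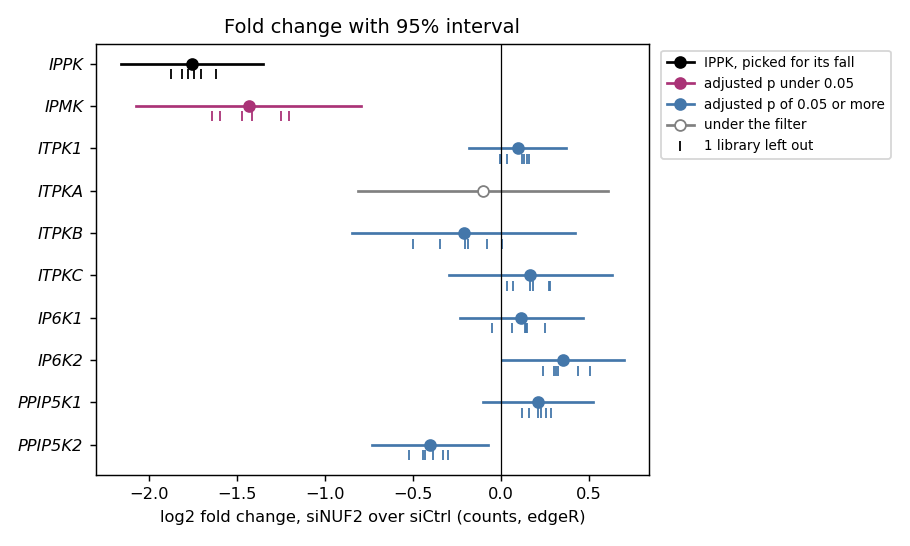
log2 fold change (siNUF2 over siCtrl) of the 10 kinase genes with 95% confidence intervals from edgeR, IPPK in black because it was picked for this value. IPMK at -1.43 lies near IPPK at -1.75, and the intervals of PPIP5K2 (-0.73 to -0.07) and IP6K2 (0.01 to 0.70) lie on opposite sides of 0.

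Counted together, 9 of the 10 genes were tested and 2 had an adjusted p under 0.05, IPPK and IPMK, both lower. Of all genes tested 3.99% passed this threshold, 2.46% in the lower direction, and nothing is read from IPPK's own call. Without IPPK, 1 of 8 tested genes passed (IPMK), and the same gene passed in DESeq2. Besides IPPK, the groups did not overlap in 2 of these 8 genes (IPMK and PPIP5K2, both lower), a share near the 24.1% of all genes tested that did not overlap. With the replicate number as a block 1 of the 8 passed (IPMK), again near the share of all genes, 14.5%. The median log2 fold change of the 8 tested genes other than IPPK was 0.11, against 0.01 over all genes tested. IP6K3, the remaining paralog of the IP6 kinases, was not analysed here.

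The order of the FPKM levels differed between the groups, with IPPK and IPMK further down in siNUF2. In siCtrl it ran from ITPK1 (17.7) through IP6K1 (11.97), IP6K2 (9.34), IPPK (4.81), IPMK (3.19), PPIP5K1 (2.41), ITPKC (2.38), PPIP5K2 (1.95) and ITPKB (1.43) to ITPKA (0.762). Neighbours whose libraries overlapped there were IP6K1 and IP6K2, IPMK and PPIP5K1, PPIP5K1 and ITPKC, and ITPKC and PPIP5K2. In siNUF2, IPPK had moved from rank 4 to rank 7 and IPMK from rank 5 to rank 9. PPIP5K2 went from rank 8 to rank 6 although its own mean was lower there (1.95 FPKM in siCtrl, 1.45 in siNUF2). The libraries of IPPK overlapped in siNUF2 those of its neighbours PPIP5K2 and ITPKB, and those of IPMK overlapped those of ITPKB. The FPKM of a gene was its count over 1 fixed length. Of 12339 genes with at least 100 counts in every library, 99.99% kept the same count per FPKM within 5% across the libraries after scaling. The values therefore held no information on isoforms, and the order depends on the length chosen. CPM (counts scaled to the library total) per kilobase of the canonical GENCODE transcript put IP6K2 (35.05 ± 6.31, SD, n = 3) above ITPK1 (22.6 ± 3.02, SD, n = 3) in siCtrl.

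Among enzymes of the same step, only the shares of PPIP5K1 and PPIP5K2 did not overlap between the groups. PPIP5K1 made up 55.4%, 53.4% and 57.0% of the summed FPKM of the pair in siCtrl and 67.3%, 68.6% and 60.3% in siNUF2. All siNUF2 libraries were above all siCtrl libraries, with siNUF2 3 the closest to them. No p is given, since 3 libraries against 3 cannot give an exact two-sided permutation p below 0.1. The sum of the pair was 4.35 ± 0.424 FPKM in siCtrl and 4.199 ± 0.226 FPKM in siNUF2 (SD, n = 3), and overlapped. IP6K1 held 56.4 ± 3.43% of the summed FPKM of IP6K1 and IP6K2 in siCtrl and 51.8 ± 5.57% in siNUF2 (SD, n = 3), and ITPKC held 52.0 ± 4.84% and 58.0 ± 4.98% of the summed FPKM of the 3 IP3 kinases (SD, n = 3). These shares overlapped between the groups.

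**Figure D3:**
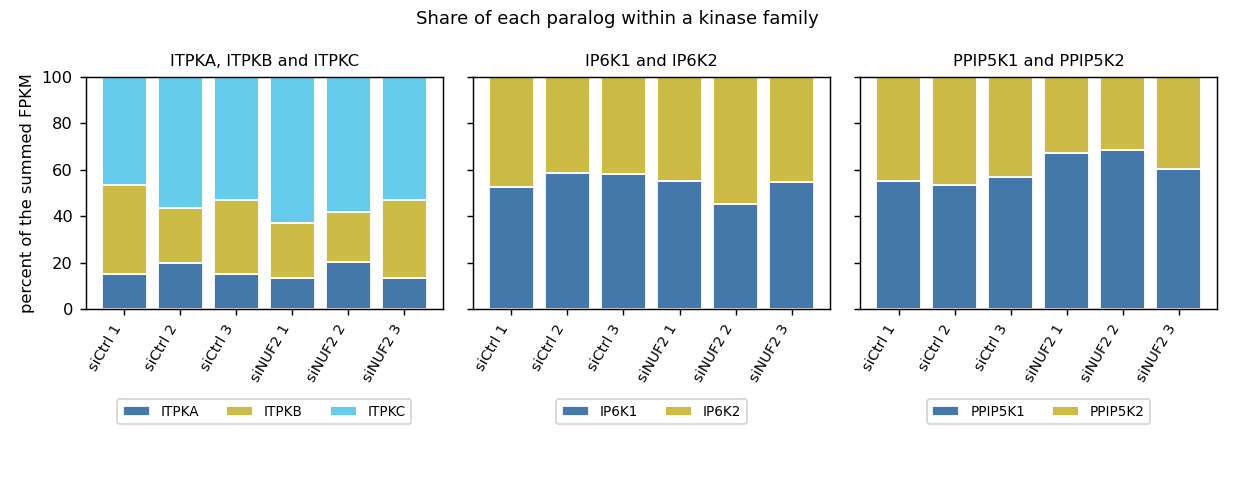
Share of each paralog in the summed FPKM of its enzyme step (percent), per library, for the IP3 kinases, the IP6 kinases and the PPIP5K pair. PPIP5K1 takes 53.4% to 57.0% in siCtrl and 60.3% to 68.6% in siNUF2, the only step shown whose shares do not overlap. Single genes did not overlap in 24.1% of all genes tested.

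The reads of IPPK share their position with CENPP, a centromere protein gene on the opposite strand (chr9:92325953-92620529). All 2649 bases of the IPPK 3′ UTR and 69.2% of its canonical transcript of 4268 bases lie in an exon of CENPP, against 18.9% of the 5′ UTR and coding part. CENPP was at 3.03, 3.05 and 4.90 FPKM in siCtrl and at 1.72, 2.16 and 2.69 FPKM in siNUF2, so the ranges did not overlap. Its log2 fold change was -0.72 (SE 0.24, adjusted p = 0.161, edgeR), and the adjusted p was 0.00850 with the replicate block. Without siCtrl 3, the library at 4.90 FPKM, the log2 fold change was -0.45. A strand setting for the counting is not given in the sources used here, and without strand the reads of the 2 genes in the shared exons cannot be told apart. The exons of ITPK1 and IP6K1 share no base with the genes that overlap them, and ITPKC shares 5 exonic bases with C19orf54.

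The genes whose log2 CPM values most resembled those of IPPK over the 6 libraries were ARMT1 (Pearson r 0.9984), ABHD13 (0.9981), PPP2R5E (0.9978), PIGA (0.9976) and KCTD9 (0.9968). PPP2R5E encodes a regulatory subunit of protein phosphatase 2A, and PIGA a subunit of the enzyme that starts GPI anchor synthesis. Their log2 fold changes were -0.97 for ARMT1, -0.82 for ABHD13, -0.54 for PPP2R5E and -1.39 for both PIGA and KCTD9. In the family, r with IPPK was 0.906 for IPMK (rank 500 of 11724 genes) and 0.869 for PPIP5K2 (rank 709), and -0.780 for IP6K2 and -0.718 for PPIP5K1. It was 0.472 for ITPKB, -0.379 for ITPK1, -0.294 for ITPKC and -0.16 for IP6K1. IPPK was picked for its difference between the groups, which enters every r. The 6 points fall into the 2 groups and come from the same libraries for every gene, so no p is given.

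Outside the kinases, the share of pathway genes past the adjusted threshold, without the replicate block, was near that of all genes tested (3.99%). Of 59 listed genes 58 were in the table and 42 were tested, and 2 had an adjusted p under 0.05, GLE1 and HDAC1, both higher. DESeq2 called 4 of the 42, where it called 8.29% of all genes. Before adjustment, 14 of the 42 had a p under 0.05 in edgeR, a larger share than the 18.2% of all genes. The groups did not overlap in 14 of the 42, also a larger share than the 24.1% of all genes. The median log2 fold change of the 42 was -0.05, with 25 below 0 and 17 above. GLE1, an mRNA export factor that binds IP6, was at 14.5, 14.2 and 14.4 FPKM in siCtrl and at 24.5, 22.8 and 23.9 FPKM in siNUF2. The siCtrl libraries were nearly equal and the siNUF2 libraries all well above them (log2 fold change 0.74, SE 0.08, adjusted p = 0.00509, edgeR). HDAC1, a histone deacetylase whose complexes bind inositol tetrakisphosphate, was at 25.9, 26.8 and 25.8 FPKM in siCtrl and at 37.0, 42.1 and 37.1 FPKM in siNUF2, with no overlap (log2 fold change 0.59, SE 0.09, adjusted p = 0.0163, edgeR). Its call was lost (adjusted p up to 0.0716) without siCtrl 1, 2 or 3 or siNUF2 1, while that of GLE1 held without any 1 library.

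By role, none of 6 tested phospholipases C passed in edgeR. Of the 6, 2 had an unadjusted p under 0.05 (18.2% of all genes) and DESeq2 called 1 (8.29% of all genes). None of 17 tested phosphatases passed (4 unadjusted, DESeq2 1), none of 2 diphosphoinositol phosphatases (1 unadjusted, DESeq2 0), none of 3 inositol supply genes (2 unadjusted, DESeq2 0) and not the 1 IP3 receptor tested (0 unadjusted, DESeq2 0). The 13 binding proteins included GLE1 and HDAC1. With the replicate number as a block 10 of the 42 genes passed, a larger share than the 14.5% of all genes. The 7 higher were GLE1, HDAC1, HDAC3, PLCB4, PLCD3, INPP5A and CDIPT, and the 3 lower were NUDT4, SLC5A3 (an inositol transporter) and HDAC2, all but GLE1 and HDAC1 named after their values were seen. NUDT4, which removes phosphates from diphosphoinositols, was at 5.13, 4.88 and 4.32 FPKM in siCtrl and 3.83, 3.77 and 3.21 FPKM in siNUF2, without overlap and with a log2 fold change of -0.39 (SE 0.12, adjusted p = 0.129 without the block, edgeR). INPP5A and PLCD3, which DESeq2 also called, were higher without overlap. Their log2 fold changes were 0.67 and 0.58 (adjusted p = 0.0786 and 0.111 without the block, edgeR).

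**Figure D4:**
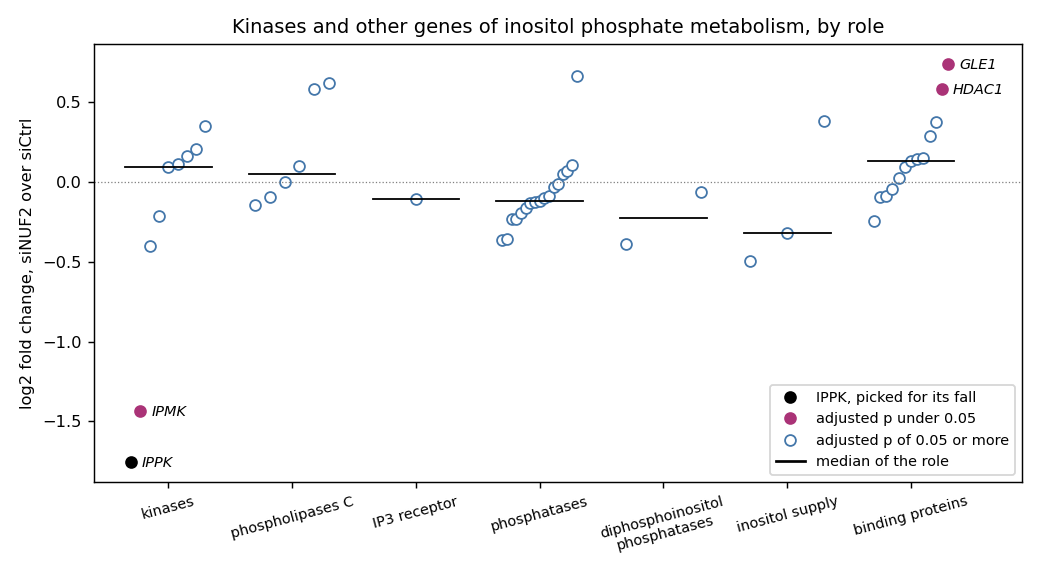
log2 fold change (siNUF2 over siCtrl) of the tested kinase genes and of the 42 other tested genes of the pathway by role, filled where the adjusted p was under 0.05 (edgeR), IPPK in black and the bar at the median of each role. IPPK and IPMK lie below -1.4, and the lowest gene of another role is at -0.49.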

How the data were processed

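The authors sequenced poly(A) RNA of 8505C cells in paired-end reads. They used fastp, HISAT2 on GRCh38 and StringTie, per the labels, and versions, annotation and strand setting are not given in the sources used here. The authors deposited 1 table with whole-number counts and FPKM values (counts scaled by gene length and library size) per library. Columns marked KD were read as siNUF2 from the knockdown label and the replicate number. How the counts were made is not given in the sources used here.

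Counts were tested for the 11725 of 32985 genes that reached a mean of 1 FPKM with edgeR's quasi-likelihood test, TMM normalization and Benjamini-Hochberg adjustment over all genes tested, at a threshold of 0.05. The code was tested on simulated data. The kinase genes, the pathway and marker lists and the tests were chosen with earlier results of these data known. Genes named are NUF2, all kinase genes, genes overlapping them, pathway genes passing the threshold, and the 5 genes most correlated with IPPK. Pathway genes named only for passing with the replicate block were chosen after their values were seen. A pathway list written for this family was matched by gene ID. The words were counted in 3′ UTRs and coding sequences of GENCODE 44, and the siRNA sequence itself is not printed.

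Depth ran from 61257859 to 69755291 counts a library. Replicates were no copies of each other (chi-square over its degrees of freedom 90.1 to 132). The labels do not say whether the replicates are separate cultures. The p-values set the group difference against the spread between these libraries. If the libraries are not separate cultures, that spread leaves out the variation between cultures. A siCtrl and a siNUF2 library of equal number deviated together (correlations from 0.328 to 0.438, against -0.269 to -0.140 for other numbers), and the number was also used as a block. Deviations were taken from the group mean, so positive values for equal numbers make those for other numbers negative. Whether the libraries were paired by number, and what a number shares, is not given in the sources used here. Alternatives were DESeq2's size factors, no filter, a mean FPKM of at least 5, DESeq2, limma on log2(FPKM + 1) and log2(FPKM + 0.1), an F-test on log2(FPKM + 1), the replicate number as a block, leaving out each library, and canonical 3′ UTRs. No protein sequences were compared. Software used was edgeR 4.0.16, DESeq2 1.42.0 and limma 3.58.1 under R 4.3.3, and Python 3.11.15 with numpy 2.4.6, pandas 2.3.3, scipy 1.17.1 and matplotlib 3.10.9.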

Additional observations from a re-analysis of the deposited data

How the results depend on the processing

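The number of genes with an adjusted p under 0.05 (468) was 188 with no filter, 972 with DESeq2, 78 with the F-test, and 124 to 251 without 1 library. With the replicate number as a block it was 1705. Of the kinase genes, 2 passed, IPPK, which was picked for its fall, and IPMK. With no filter, with limma on log2(FPKM + 0.1) and with the F-test only IPPK passed, so no gene taken as family did. The same held without any 1 library other than siCtrl 1. IPMK had an adjusted p of 0.0919 with no filter (edgeR), 0.0508 with limma on log2(FPKM + 0.1) and 0.192 with the F-test. In edgeR with a mean FPKM of at least 5, 0 of 3 tested genes passed and 0 had an unadjusted p under 0.05. IPPK and IPMK were not tested there. Of the pathway genes, 2 passed, and 4 with DESeq2, 1 with the F-test, 10 with the replicate block and 1 to 2 without 1 library. Reversed log2 fold changes were those of ITPK1 without siCtrl 1 (-0.0067, up to 0.16 without another library), ITPKB without siNUF2 2 (0.0036, down to -0.50 without another) and IP6K1 without siNUF2 1 (-0.052, up to 0.25 without another), none past the threshold. Of 108 other values for the kinase genes besides IPPK, 97 kept direction and side of the threshold, 8 (all of IPMK) lost the threshold and 3 reversed. The causes of these differences were not tested, apart from fewer genes under the stricter filter. The block changed no call among the kinase genes. With canonical 3′ UTRs, ATGGAA was present in 5 of the kinase genes and TATGGAA in 3.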
